A study of Homo sapiens with 3 samples.

Results

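The genes described here are stem cell genes that do not encode sequence-specific transcription factors, together with a pair of epithelial adhesion genes that stem cells also express. The list names 10 genes, and the members were the rows of the deposited tables that carry those names. Of the 10, 7 had a value, out of 18345 genes in each table: DNMT3B, DPPA4, L1TD1, TDGF1, USP44, CDH1 and EPCAM. LIN28A, LIN28B and TERF1 were not analysed here. All 7 reached 1 FPKM in at least 1 library.

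The RNA came from CD31+CD34+ cells derived from H1, a human embryonic stem cell line in wide use, and labelled HEPs. After activin A (40 ng/ml) with BMP4 (50 ng/ml) for 2 days, the cultures received VEGF (40 ng/ml) with bFGF (50 ng/ml) for 3 days, per the labels' protocols, although the samples carry day 4 as their time. The cells were sorted by surface CD105, the co-receptor endoglin, into negative, low and high populations, called CD105neg, CD105low and CD105high below. Each population had 1 library, all from 1 line and 1 protocol, and no sample of undifferentiated H1 cells was analysed here, so how far the levels lie from those of the stem cell stage was not measured. There is no spread between replicates, and the comparisons below are of libraries, with no test.

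Human pluripotent stem cells are an epithelium. They are joined by E-cadherin, the product of CDH1, and carry EPCAM, a small adhesion protein of epithelial surfaces. When they turn into mesoderm and then into endothelium and blood, E-cadherin gives way to other cadherins and the stem cell genes are silenced at different speeds. DNMT3B adds methyl groups to cytosines at CpG sites that were not methylated before, and is the main enzyme of this kind in stem cells. DPPA4 is a chromatin protein of pluripotent cells, and L1TD1 is an RNA-binding protein that arose from the first open reading frame of the LINE-1 transposon. TDGF1, also known as Cripto, is a membrane-bound co-receptor for Nodal. USP44 removes ubiquitin, from the CDC20 complex of the spindle checkpoint and from histone H2B.

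DNMT3B and DPPA4 had the highest levels of the 7 genes, and DPPA4 and L1TD1 differed least between CD105high and CD105neg. Sequences from DNMT3B, DPPA4 and L1TD1 are shown because CpG sites, the substrate of DNMT3B, are unevenly spread over them. The sequences are the 250 bases before an annotated start of each gene, from RefSeq on GRCh38.p14. Such a sequence was at hand for 3 of the 7 members. DNMT3B has 6 annotated transcripts, DPPA4 has 8 and L1TD1 has 1. Whether the windows of DNMT3B and DPPA4 precede the main start of the gene was not tested. A window before a later start would lie inside the gene. Their CpG numbers describe the printed windows only. Capitals mark each CpG dinucleotide.
DNMT3B, chr20:32779602-32779851, plus strand: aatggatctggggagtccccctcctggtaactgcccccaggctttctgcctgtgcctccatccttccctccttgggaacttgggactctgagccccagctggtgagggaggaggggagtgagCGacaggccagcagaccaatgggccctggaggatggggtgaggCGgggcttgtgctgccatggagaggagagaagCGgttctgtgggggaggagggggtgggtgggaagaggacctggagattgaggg
DPPA4, chr3:109337547-109337796, minus strand: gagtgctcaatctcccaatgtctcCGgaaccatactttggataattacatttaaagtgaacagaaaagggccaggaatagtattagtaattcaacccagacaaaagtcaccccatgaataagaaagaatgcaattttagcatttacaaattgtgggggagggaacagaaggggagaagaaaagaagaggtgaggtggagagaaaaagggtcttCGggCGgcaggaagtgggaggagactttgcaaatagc
L1TD1, chr1:62194599-62194848, plus strand: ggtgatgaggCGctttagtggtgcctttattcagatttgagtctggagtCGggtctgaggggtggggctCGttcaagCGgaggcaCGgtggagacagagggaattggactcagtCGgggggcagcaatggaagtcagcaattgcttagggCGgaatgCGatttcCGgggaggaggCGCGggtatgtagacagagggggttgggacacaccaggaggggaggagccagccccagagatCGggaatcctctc
The DNMT3B window held 3 CpG dinucleotides at a G and C content of 64.0%, and the DPPA4 window also held 3, at 43.2%. The L1TD1 window held 12 at 59.6%, against a median of 11 over the same 250 bases of 35116 promoters. Each of the 3 windows held a CCAAT box, the letters CCAAT on either strand, which 32.0% of all promoters did. The letters TGCAAAT, part of the octamer ATGCAAAT, were searched on both strands and stood 10 bases before the DPPA4 start used here. They occurred in 3.67% of all promoters, and in neither the DNMT3B nor the L1TD1 window. The full octamer was in none of the 3 windows and in 1.63% of all promoters. Methylation and factor binding were not measured in these samples, and a match of letters is no evidence of either.

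The files name no unit, and their values are given here as FPKM, which corrects fragment numbers for gene length and library size, so that genes can be compared with each other. The values summed to 265618 to 289229 per library, and 10917 to 11062 genes reached 1 FPKM. The gate genes followed the sort: ENG, which encodes CD105, stood at 2.12, 8.56 and 13.8 FPKM in CD105neg, CD105low and CD105high, PECAM1, which encodes CD31, at 29.9, 41.9 and 50.1 FPKM, and CD34 at 21.0, 39.2 and 43.2 FPKM. The table labelled CD105neg has a column header that speaks of CD105 positive cells, and ENG was lowest in it. Read numbers remain not given in the sources used here. The lowest values, multiplied by transcript length, lay on whole multiples of 1 step, with 60.3% to 64.7% of them within 0.04 of a multiple of the best step. If 2 such steps are 1 fragment, the value of L1TD1, which has a single annotated transcript, stands for 1344, 1502 and 1343 fragments. On the same reckoning, and with all reads from its longest transcript, CDH1 stands for 676, 441 and 318 fragments. No counting interval is given, since a step was not shown to be a read.

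DNMT3B (ENSG00000088305.18, chromosome 20) had the highest level of the 7, with 58.7, 50.3 and 43.4 FPKM in CD105neg, CD105low and CD105high. The level was lower in each step up in CD105, and CD105high held 0.739 times the value of CD105neg. This placed DNMT3B at percentile 94.2 of all genes in CD105high and 95.7 in CD105neg. DPPA4 (ENSG00000121570.12, chromosome 3) stood at 30.3, 32.8 and 30.5 FPKM in CD105neg, CD105low and CD105high. Its lowest and highest values came from CD105neg and CD105low, and the ratio of CD105high to CD105neg was 1.01. DNMT3B and DPPA4 together made up 83.3% of the summed value of the 7 genes in CD105neg, 85.5% in CD105low and 85.6% in CD105high. L1TD1 (ENSG00000240563.1, chromosome 1) was far less abundant and about as level as DPPA4, at 4.54, 4.59 and 4.38 FPKM. Its ratio of CD105high to CD105neg was 0.965.

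**Figure D1:**
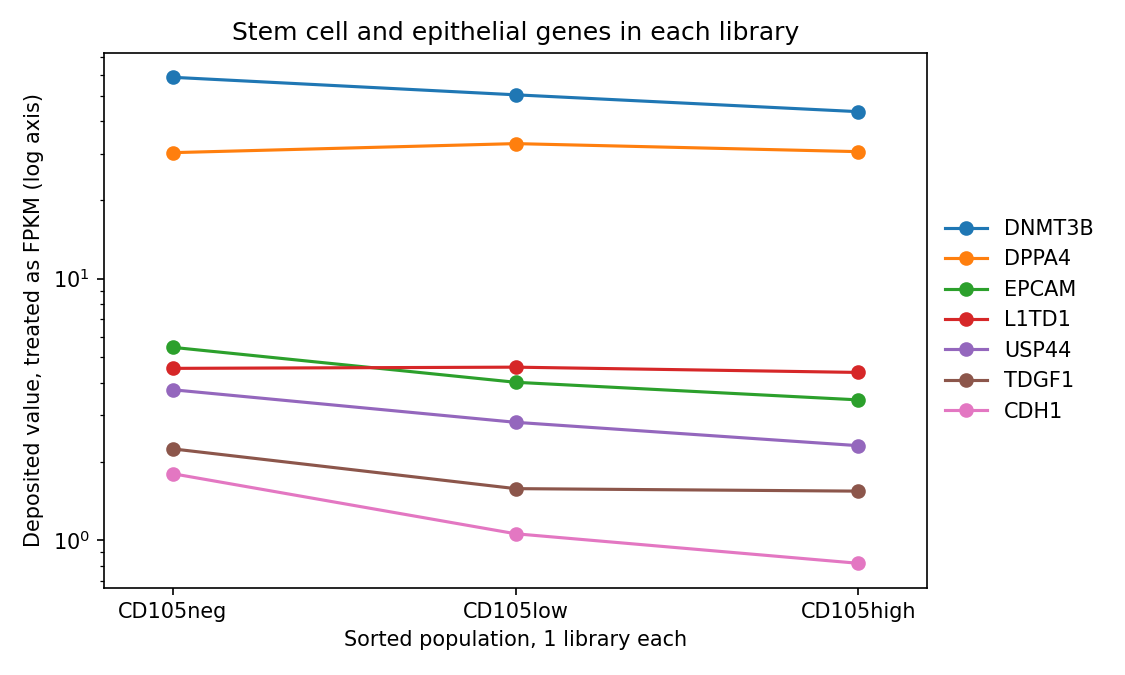
Deposited value, treated as FPKM, on a log axis for each of the 7 genes, with the 3 sorted populations from low to high CD105 along the x axis and 1 library per point. Lines join the points of a gene. DNMT3B and DPPA4 lie above 30 FPKM throughout, DPPA4 and L1TD1 run level, and CDH1 has the steepest line, with 0.82 FPKM in CD105high against 1.80 FPKM in CD105neg.

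TDGF1 (ENSG00000241186.9, chromosome 3), the Nodal co-receptor, stood at 2.24, 1.58 and 1.54 FPKM in CD105neg, CD105low and CD105high. CD105neg was thus the high one, and CD105high held 0.978 times the value of CD105low. The values of TDGF1 are uncertain, because 34.1% of its 50-base pieces also occur in transcripts of 9 other genes, among them its processed copy TDGF1P3. USP44 (ENSG00000136014.11, chromosome 12), the deubiquitinase, stood at 3.76, 2.83 and 2.30 FPKM in CD105neg, CD105low and CD105high. Each step up in CD105 had a lower value, and CD105high held 0.612 times that of CD105neg. None of the pieces of USP44 or DNMT3B occurred in another gene.

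The epithelial pair was lower in each step up in CD105. CDH1 (ENSG00000039068.18, chromosome 16) had the lowest level of the 7, at 1.80, 1.06 and 0.82 FPKM in CD105neg, CD105low and CD105high. The ratio was 0.455 for CD105high to CD105neg and 0.590 for CD105low to CD105neg, the largest relative differences of the 7 genes in either pair. EPCAM (ENSG00000119888.10, chromosome 2) stood at 5.46, 4.02 and 3.44 FPKM in the same order, with ratios of 0.630 and 0.736. EPCAM was thus about as abundant as L1TD1 and lay above it in CD105neg, but below it in CD105low and CD105high. Of the exon bases of CDH1, 5.62% overlap a gene on the other strand, AC099314.1, whose reads cannot be told apart in libraries that do not mark the strand. In sorted bulk RNA, fewer cells that express a gene and less RNA per cell cannot be told apart, for these and all other genes here.

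To set these differences beside those of other genes, libraries were compared by the log2 ratio of the value plus a pseudocount of 1, and a gene was counted where it was at least 1.5-fold higher or lower on that scale. The pseudocount makes the ratio of a low gene smaller than that of its plain values. The rule was applied to the 11343 genes that reached 1 FPKM in any library. In CD105high against CD105neg, 1 of the 7 members was lower, CDH1 (log2 ratio -0.62), and none was higher, where 6.88% of all genes were lower and 5.65% higher. A count of 1 in 7 is too small to read against that share. EPCAM (-0.54) and USP44 (-0.53) lay just short of the limit, followed by DNMT3B (-0.43) and TDGF1 (-0.35), and L1TD1 (-0.04) and DPPA4 (0.01) lay near 0. Any difference counted, 6 of the 7 were lower in CD105high, as were 61.0% of all genes. The median of the members was -0.43, and that of all genes -0.09. After centring on the median of all genes CDH1 was at -0.53 and no member was counted.

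In CD105low against CD105neg no member was counted, where 2.18% of all genes were lower and 4.13% higher. CDH1 (-0.44), EPCAM (-0.36), TDGF1 (-0.33), USP44 (-0.32) and DNMT3B (-0.22) had ratios below 0, L1TD1 was at 0.01 and DPPA4 at 0.11. These 5 of 7 with a lower value stand beside 47.3% of all genes. The median of the members was -0.32, against 0.02 for all genes. In CD105high against CD105low again no member was counted, where 2.19% of all genes were lower and 1.18% higher. All 7 ratios were below 0, from -0.21 for USP44 to -0.02 for TDGF1, but so were those of 71.5% of all genes, and after centring those of L1TD1 and TDGF1 were above 0. The comparisons with CD105neg share that library, and those with CD105high share that one, so they are no independent looks at the same genes.

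**Figure D2:**
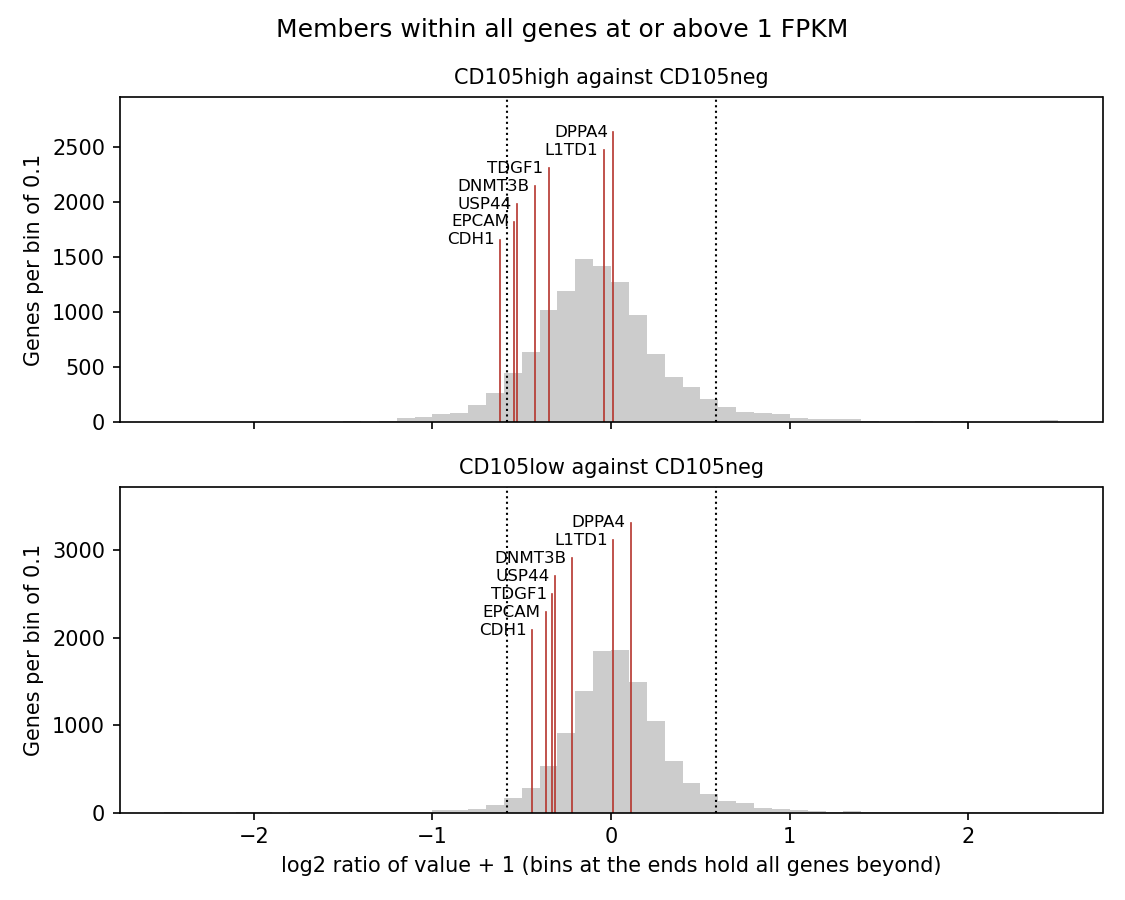
Number of genes in each bin of the log2 ratio of value + 1 (grey bars, the 11343 genes that reached 1 FPKM in any library), for CD105high against CD105neg above and CD105low against CD105neg below, with the 7 members as red lines and the 1.5-fold limits dotted. CDH1 at -0.62 is the single member beyond a limit, in the upper panel, while DPPA4 and L1TD1 lie in the middle of all genes in both.

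The values of 5 members, CDH1, EPCAM, USP44, DNMT3B and TDGF1, stood in the order CD105neg above CD105low above CD105high. This order was held by 36.4% of all genes, and the opposite one by 17.6%. None of the 7 had the opposite order.

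CDH1 and EPCAM were next set beside 27 other genes of epithelia. By any amount, 15 of the 20 that reached 1 FPKM were lower in CD105high than in CD105neg, as the adhesion pair was. Among all genes that share was 61.0%. Of the 20 that reached 1 FPKM, 7 were at least 1.5-fold lower and 1 was at least 1.5-fold higher in CD105high than in CD105neg, and the median log2 ratio was -0.49. Among all genes those shares were 6.88% and 5.65%, and the median -0.09. The order CD105neg above CD105low above CD105high was held by 15 of the 20, against 36.4% of all genes. KRT19, a keratin of simple epithelia, stood at 67.8, 46.1 and 30.2 FPKM in CD105neg, CD105low and CD105high. CLDN10, a tight junction claudin, stood at 17.3, 11.9 and 7.89 FPKM, and PRSS8, a membrane serine protease of epithelia, at 3.40, 1.72 and 1.23 FPKM. The others that were lower were KRT18, LSR, CGN and PKP2, and the one that was higher was DSC2, a desmosomal cadherin, at 5.97, 9.07 and 11.0 FPKM. Values of CLDN10 and KRT18 are uncertain, with 35.8% and 34.3% of their pieces found in other genes.

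In CD105low against CD105neg, 1 of the 20 epithelial genes was lower, PRSS8, and 1 higher, CLDN6. Among all genes 2.18% were lower and 4.13% higher, and the medians were -0.27 for the 20 and 0.02 for all genes. In CD105high against CD105low, 1 was lower, KRT19, and none higher, where 2.19% of all genes were lower and 1.18% higher. The median was -0.20 against -0.10. Counts of 1 in 20 are too small to read against these shares. CDH1 and EPCAM, at -0.62 and -0.54 in CD105high against CD105neg, lay close to the median of -0.49 of these other genes.

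**Figure D3:**
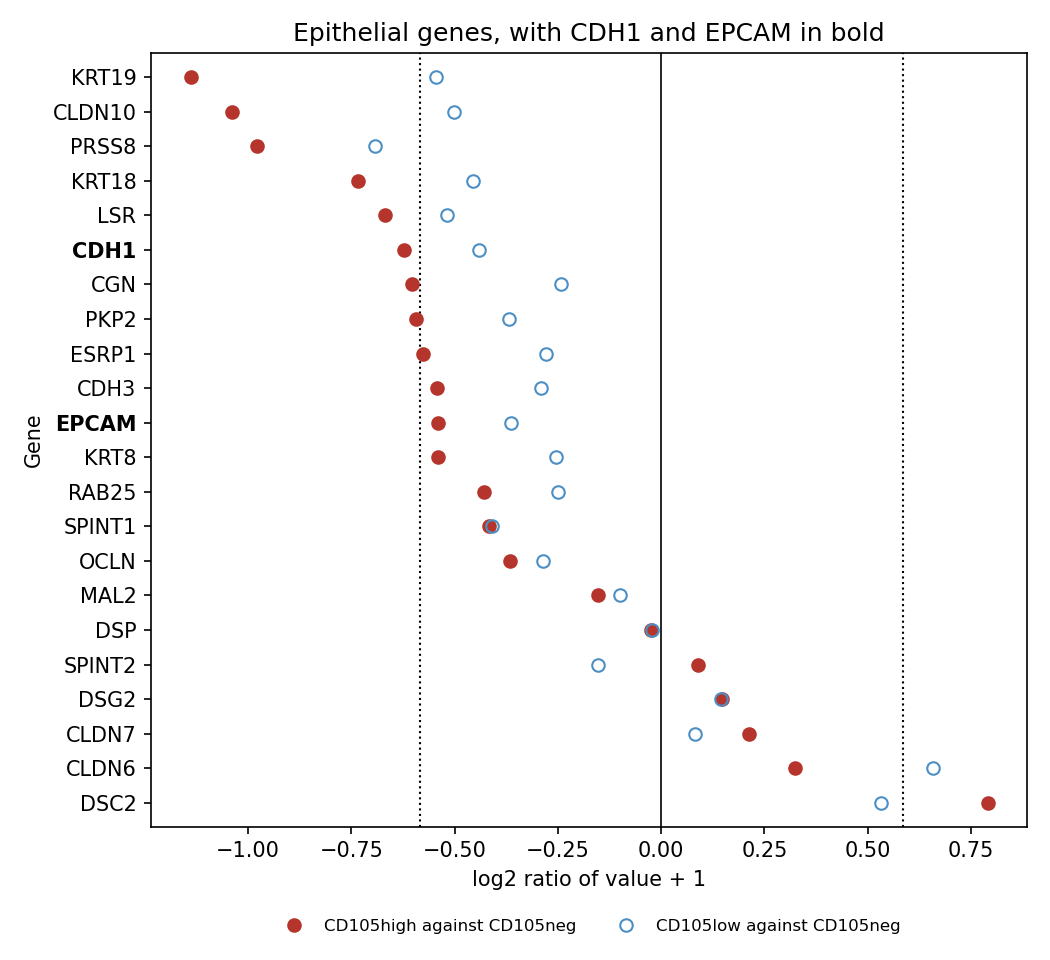
log2 ratio of value + 1 of the 20 epithelial genes at or above 1 FPKM and of CDH1 and EPCAM (bold), for CD105high against CD105neg (filled) and CD105low against CD105neg (open), with 1 library per population and the 1.5-fold limits dotted. KRT19 at -1.14 has the lowest filled point and DSC2 at 0.79 the highest, and CDH1 and EPCAM sit in the lower part of the range.

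Among the cadherins that reached 1 FPKM, CDH1 was the least abundant in every library. CDH11, a cadherin of mesenchyme, was the highest in CD105neg, with 118 FPKM there, against 78.6 FPKM in CD105low and 53.0 FPKM in CD105high. CDH5, the cadherin of endothelial junctions, had the opposite order, at 48.0, 79.6 and 94.1 FPKM, and was the highest of the family in CD105low and CD105high. CDH13 stood at 8.63, 20.9 and 25.4 FPKM in that order, and CDH3, or P-cadherin, at 4.60, 3.58 and 2.85 FPKM. CDH2, or N-cadherin, was also higher with each step up in CD105, at 20.1, 24.7 and 26.4 FPKM, short of the limit. CDH8 and CDH24 were lower with each step, by little. In CD105high against CD105neg, 2 of the 7 measured cadherins other than CDH1 were higher, CDH5 and CDH13, and 1 was lower, CDH11, where 5.65% of all genes were higher and 6.88% lower. In CD105low against CD105neg the same pair was higher and none was lower, where 4.13% of all genes were higher and 2.18% lower. Between CD105high and CD105low none was counted, where 1.18% of all genes were higher and 2.19% lower. CDH1 thus differed in the direction of CDH11 and CDH3, from a far lower level than CDH11.

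**Figure D4:**
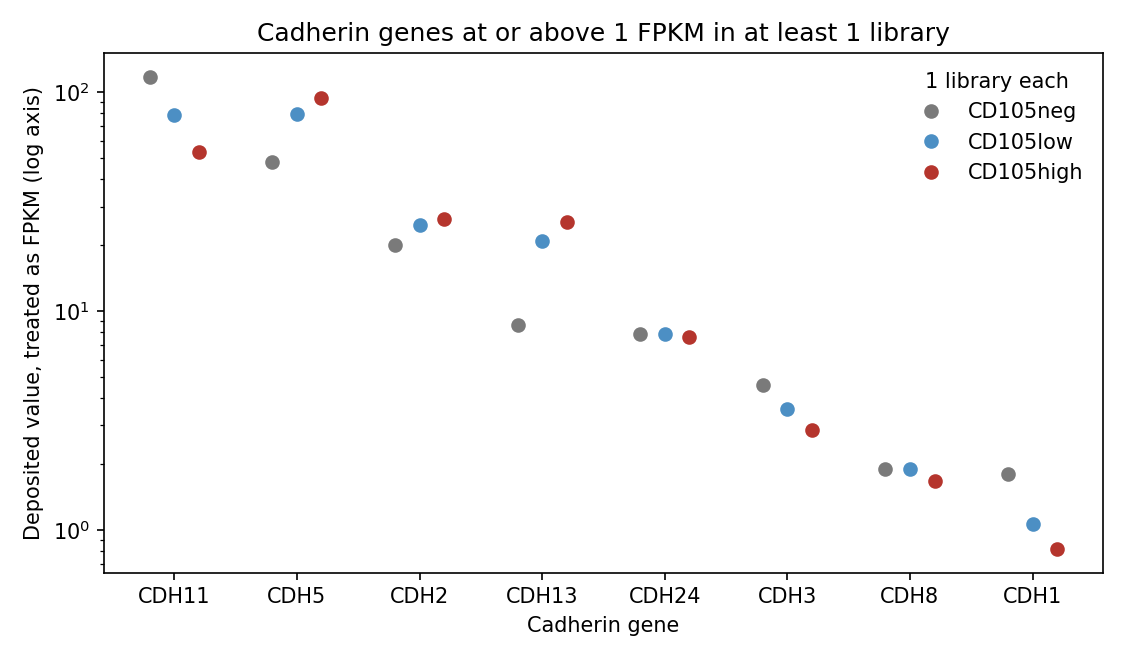
Deposited value, treated as FPKM, on a log axis for each cadherin gene that reached 1 FPKM in any library, with 1 point per library in the order CD105neg, CD105low and CD105high. CDH5, CDH13 and CDH2 are higher with each step up in CD105. CDH11, CDH3, CDH8, CDH24 and CDH1 are lower, CDH8 and CDH24 by little, and CDH1 ends at 0.82 FPKM.

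The genes of proteins that bind or cut the adhesion pair lay near the median of all genes. Of 13 genes for catenins and for the proteases that cleave E-cadherin or EPCAM with their partners, none was 1.5-fold apart in any of the 3 comparisons, and the median log2 ratio for CD105high against CD105neg was -0.07, against -0.09 for all genes. With 5.65% of all genes higher and 6.88% lower in that comparison, a count of 0 in 13 is near the share of all genes. CTNNA1, alpha-catenin, stood at 160, 124 and 132 FPKM in CD105neg, CD105low and CD105high, and JUP, plakoglobin, at 24.5, 26.6 and 30.6 FPKM. VCL, vinculin, stood at 36.9, 31.7 and 28.2 FPKM. FHL2, a cofactor of the cleaved EPCAM tail, came closest to the limit, at 2.24, 1.46 and 1.17 FPKM (log2 ratio of CD105high to CD105neg -0.58).

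Most genes of the enzymes that work with DNMT3B had lower values in CD105high than in CD105neg, by less than the limit. Of 8 measured genes that write, read or erase DNA methylation, none was counted in any comparison, where 5.65% of all genes were higher and 6.88% lower in CD105high against CD105neg, and 7 had a lower value in CD105high than in CD105neg, as did 61.0% of all genes. Their median log2 ratio was -0.25. DNMT1, the maintenance methyltransferase, stood at 31.3, 28.5 and 25.9 FPKM in CD105neg, CD105low and CD105high, and its partner UHRF1, with 33.8% of its pieces in other genes, at 24.1, 21.3 and 17.8 FPKM. HELLS, a chromatin remodeller needed for DNA methylation, stood at 53.8, 41.3 and 42.2 FPKM, and the demethylation glycosylase TDG at 19.8, 14.3 and 14.1 FPKM. DNMT3A, the other de novo enzyme, stood at 9.65, 9.78 and 7.99 FPKM, so DNMT3B was the more abundant of the pair in every library. DNMT3L, their inactive cofactor in stem cells and germ cells, was listed at 0 in all 3.

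TDGF1 needs Nodal or a related ligand and the activin receptors to signal. NODAL itself did not reach 0.04 FPKM in any library, while GDF3, a related ligand that also uses TDGF1, stood at 3.93, 3.62 and 2.87 FPKM in CD105neg, CD105low and CD105high. Of the 9 measured genes of the pathway, 2 were higher in CD105high than in CD105neg and none was lower, where 5.65% of all genes were higher and 6.88% lower. Counts of this size in 9 genes are too small to read against those shares. The 2 were CER1, a secreted Nodal antagonist, at 0.91, 1.78 and 3.51 FPKM, and the type II receptor gene ACVR2A, at 3.12, 6.80 and 6.04 FPKM. In CD105low against CD105neg ACVR2A was higher, where 4.13% of all genes were higher and 2.18% lower. In CD105high against CD105low CER1 was higher, where 1.18% of all genes were higher and 2.19% lower. No gene of the pathway was lower in either, and these counts too are too small to read. FURIN, a protease that matures Nodal, stood at 29.3, 36.7 and 41.6 FPKM.

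USP44 acts on the spindle checkpoint and on ubiquitin at histone H2B. None of 16 genes of these systems was counted in any comparison, and with 5.65% of all genes higher and 6.88% lower in CD105high than in CD105neg, few such genes would be counted in a list of that length. Their median log2 ratio for CD105high against CD105neg was -0.10, against -0.09 for all genes. All 16 had a lower value in CD105high than in CD105low, by any amount, as did 71.5% of all genes. CDC20, the activator that USP44 holds in check, stood at 63.6, 60.0 and 49.7 FPKM in CD105neg, CD105low and CD105high, and MAD1L1, a checkpoint protein, at 41.3, 32.1 and 29.7 FPKM. UBE2S, an E2 enzyme of the anaphase-promoting complex, with 25.5% of its pieces in other genes, stood at 91.4, 87.2 and 74.6 FPKM, and XPC, a partner of centrin, at 14.9, 12.9 and 11.2 FPKM. USP22, which also removes ubiquitin from H2B, stood at 65.7, 64.9 and 63.4 FPKM, about as level as DPPA4.

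The stem cell label of the members was checked against 30 other genes known from pluripotent cells. DPPA5, FGF4 and DNMT3L were listed at 0 in every library, and DPPA3, NODAL, LEFTY1, LEFTY2, TERT, CRABP1 and NLRP7 stayed below 1 FPKM. At the other end, CD24 stood at 216, 212 and 198 FPKM in CD105neg, CD105low and CD105high, and TRIM71, a stem cell ubiquitin ligase and let-7 target, at 25.1, 25.1 and 25.2 FPKM. TRIM71 was thus as level as DPPA4, a member of similar abundance. DPPA2, which works in a complex with DPPA4, stood at 1.13, 0.84 and 0.77 FPKM, far below DPPA4. Of the 20 that reached 1 FPKM, 2 were lower in CD105high than in CD105neg, GAL and POLR3G, and 2 were higher, CD9 and THY1, with a median log2 ratio of -0.18 against -0.09 for all genes. Among all genes 6.88% were lower and 5.65% higher, and 2 in 20 is near either share. GAL, the neuropeptide galanin, stood at 2.61, 0.93 and 0.73 FPKM, and POLR3G, a subunit of RNA polymerase III, at 2.87, 2.53 and 1.24 FPKM. The surface proteins CD9, at 15.7, 27.7 and 35.0 FPKM, and THY1, at 33.6, 53.9 and 57.3 FPKM, are not restricted to stem cells. In CD105low against CD105neg, GAL was lower and CD9 and THY1 higher, where 2.18% of all genes were lower and 4.13% higher. In CD105high against CD105low POLR3G was lower and none higher, where 2.19% of all genes were lower and 1.18% higher. Such counts in 20 genes are too small to read against those shares. CD24 is not restricted to stem cells either. Of the 20, 13 had a lower value in CD105high than in CD105neg by any amount, as did 61.0% of all genes. The label could thus be checked in part only. Of the 30 other genes, 20 reached 1 FPKM and 10 stayed below it in every library, and no undifferentiated sample was analysed here.

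**Figure D5:**
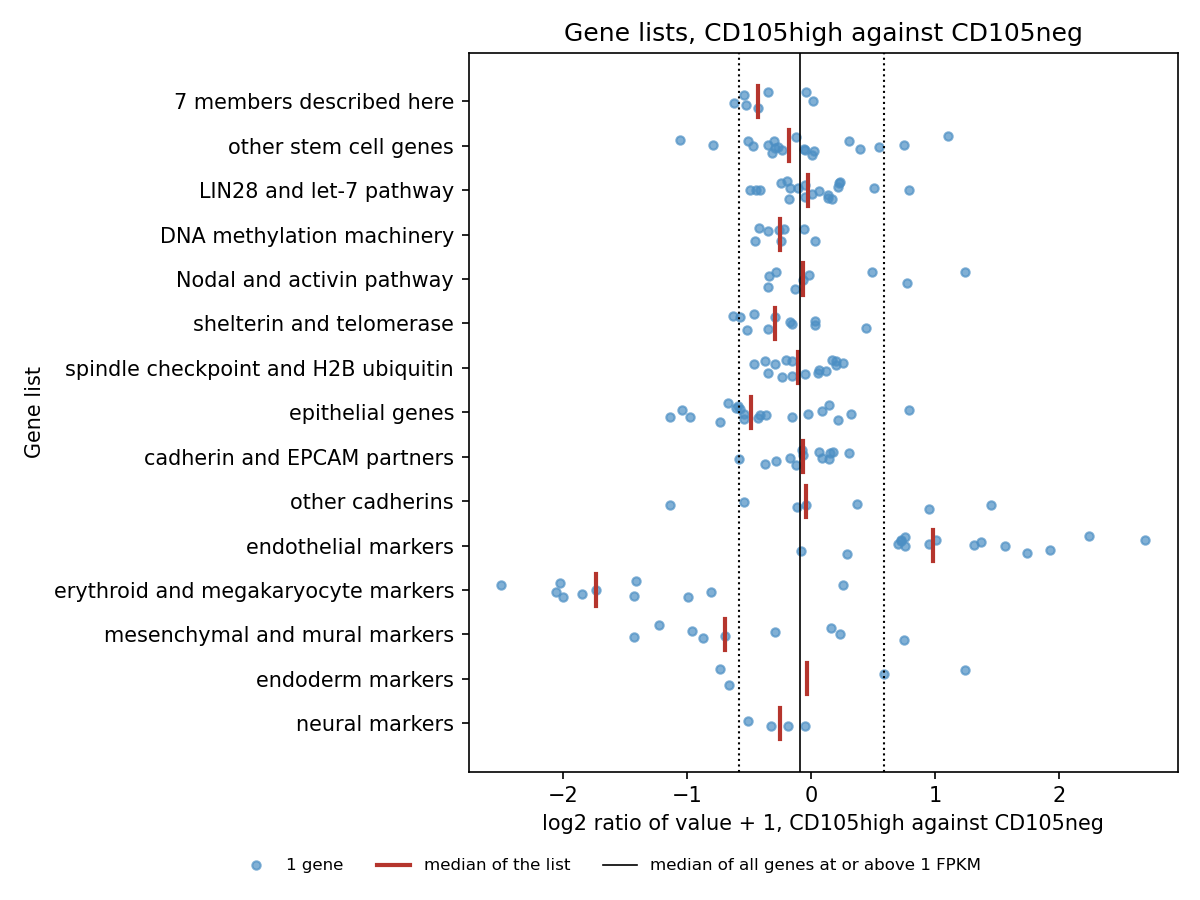
log2 ratio of value + 1 for CD105high against CD105neg of each gene at or above 1 FPKM in the gene lists (blue points, spread vertically for legibility), with the median of each list in red, the median of all genes as a black line and the 1.5-fold limits dotted. The 7 members have a median of -0.43 and the epithelial genes of -0.49, against -0.09 for all genes.

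Markers of other cell types were looked at in the same libraries. The cells had been sorted as CD31+CD34+, and whether cells of other types passed that gate was not measured. The counts that follow stand beside 5.65% of all genes that were at least 1.5-fold higher in CD105high than in CD105neg and 6.88% that were lower. The endothelial, erythroid and mesenchymal sets differed along the sort, and the endoderm and neural sets had no common direction beyond the limit. Endothelial markers summed to 1426, 2046 and 2190 FPKM in CD105neg, CD105low and CD105high, and 14 of 16 were higher in CD105high than in CD105neg. The 14 include ENG, whose protein the cells were sorted on, and PECAM1 and CD34, the other genes of the gate. KDR, the main VEGF receptor, stood at 430, 644 and 713 FPKM. EGFL7, the most abundant of them in CD105neg, stood at 558, 630 and 528 FPKM. It was the only 1 of the 16 with a lower value in CD105high than in CD105neg. Erythroid and megakaryocyte markers summed to 89.3, 40.6 and 24.7 FPKM, and 10 of 11 measured were lower. The order CD105neg above CD105low above CD105high was held by 9 of the 11, against 36.4% of all genes. EPOR was not lower, at 7.19, 9.45 and 8.82 FPKM, and HBG2 stood at 8.10, 1.16 and 1.27 FPKM. RHAG, of the red cell Rh complex, stood at 26.3, 10.9 and 5.71 FPKM. The erythroid gene SLC4A1 was listed at 0 in all 3 libraries and HBZ, HBA1, HBA2 and AHSP in CD105low and CD105high. Mesenchymal and mural markers summed to 406, 390 and 333 FPKM, and 5 of 9 measured were lower and 1 higher. The one that was higher was THY1. TAGLN, a smooth muscle protein, stood at 77.5, 66.1 and 41.9 FPKM, but ACTA2, another, at 20.4, 23.1 and 24.2 FPKM. PDGFRA was also not lower, at 11.7, 14.9 and 13.2 FPKM. COL1A2, the most abundant, stood at 216, 199 and 177 FPKM, short of the limit. DCN was at 0.004 FPKM in CD105neg and listed at 0 in CD105low and CD105high. Endoderm markers, which would mark another epithelium with CDH1 and EPCAM, summed to 9.57, 8.10 and 9.15 FPKM, with 2 of 4 measured lower, APOA1 and APOA2, and 2 higher, APOB and CER1. AFP and TTR stayed below 0.5 FPKM, and SERPINA1 was listed at 0 in all 3. Neural markers summed to 93.4, 83.9 and 80.2 FPKM, of which NES alone gave 74.4, 69.0 and 65.4 FPKM, and none of 4 was counted. The part of these cell types in the values of the 7 genes was not tested.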

How the data were processed

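The 3 RNA-seq libraries, of 2 ug of RNA each, were built with TruSeq reagents, per the labels' protocols. The kit named there leaves the strand unmarked. Per the submitters' processing notes, BWA, Bowtie, RSEM and hg19 were used, with no version, role or order. The annotation and filters remain not given in the sources used here. The deposited tables give 1 value per gene, and neither header nor label names the unit. The authors' deposited values were treated as FPKM, since they are not whole and their low values step with transcript length. TPM would show such steps as well. The column of the CD105neg table is headed as CD105 positive, and its group was taken from the sample's label.

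Log2 ratios used a pseudocount of 1, and genes that reached 1 FPKM in any of the 3 libraries were counted at a 1.5-fold limit, with Python 3.11.15 and pandas 2.3.3. The counting code was tried on artificial data, and the error of the counts reported here was not tested. With 1 library per group no p-value is given, and differences carry no replicate error. Shared sequence was the share of 50-base pieces, taken every 40 bases from GENCODE release 29 transcripts, that occur in another gene on either strand. Its build is GRCh38, not the submitters' hg19, so the RefSeq promoters are the one set printed with coordinates.

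All 10 named members were described whatever their values, where analysed. Besides them the text names up to 4 genes of each list with the largest ratio of CD105high to CD105neg in either direction, and the gate genes. Of the most abundant markers it names some only. Other genes named were chosen after their values were seen. Members and lists were chosen with earlier results of these data known. Alternatives were a pseudocount of 0.1 or 5, centring, rescaling, other limits on low values and a 2-fold limit.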

Additional observations from a re-analysis of the deposited data

How the results depend on the processing

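The medians of the members stayed below 0 in all 3 comparisons under each setting tried, and no member was counted as higher under any. The number counted as lower in CD105high than in CD105neg, 1 as reported, was 3 with a pseudocount of 0.1 (CDH1, EPCAM and USP44) and 0 with a pseudocount of 5, after centring on the median of all genes, among members at or above 10 FPKM, or with a 2-fold limit. In CD105low against CD105neg, 0 as reported, it was 1 (CDH1) with a pseudocount of 0.1 and 1 after rescaling each library to the same sum of values, which also makes the pseudocount smaller against the values. The plain ratios of CDH1, EPCAM and USP44 do not depend on the pseudocount, and the settings differ in how far they shrink the ratios of low genes. Centring or rescaling changed the sign of L1TD1 in CD105high against both other libraries, centring that of L1TD1 in CD105low against CD105neg, and either that of TDGF1 in CD105high against CD105low, all within 0.1 of 0 on the log2 scale. No paired analysis was possible because each group has 1 library. With 1 library per group, leaving out a replicate gives no value. The number of reads behind each value is not known, so what depth limits could not be measured.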

Other observations

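Genes around the 3 members that were not analysed here, LIN28A, LIN28B and TERF1, gave these values. LIN28 proteins block the maturation of let-7 microRNAs. Of 20 measured genes of that pathway, for processing and turnover enzymes and for let-7 targets, 1 was at least 1.5-fold higher in CD105high than in CD105neg and none was lower, with a median log2 ratio of -0.02. Among all genes 5.65% were higher and 6.88% lower, with a median of -0.09, so 1 in 20 is near the share of all genes. That gene was IGF1R, a growth factor receptor, at 14.9, 25.5 and 26.4 FPKM in CD105neg, CD105low and CD105high. CCND1, cyclin D1, stood at 47.8, 57.9 and 68.6 FPKM, the phosphatase gene CDC25A at 19.7, 17.0 and 13.7 FPKM, and XPO5, which exports microRNA precursors, at 20.4, 16.1 and 14.7 FPKM.

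TERF1 encodes a telomere protein of shelterin. Of 11 measured genes of shelterin and telomerase, 1 was lower in CD105high than in CD105neg, WRAP53, and none was higher, where 6.88% of all genes were lower and 5.65% higher, and the median was -0.30 against -0.09 for all genes. A count of 1 in 11 is near that share. The 4 farthest from 0 on the log2 scale were all lower and encode proteins of the telomerase complex. They were picked by the size of that ratio, and GAR1, another gene of the list, was at -0.15. Whether the difference is particular to telomerase was not tested. WRAP53 stood at 11.9, 9.73 and 7.31 FPKM, DKC1 at 25.1, 21.7 and 16.5 FPKM, NOP10 at 121.9, 96.9 and 85.0 FPKM, and NHP2, with 32.5% of its pieces in other genes, at 57.1, 46.0 and 41.2 FPKM. TINF2, a shelterin gene, had the opposite direction, with a log2 ratio of CD105high to CD105neg of 0.45, short of the limit. TERT, the catalytic subunit, stood at 0.70, 0.28 and 0.13 FPKM and did not reach the limit of 1 FPKM.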
